A study of Rattus norvegicus with 12 samples.

Results

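Cytosolic ribosomal proteins are the protein part of the ribosome that translates nuclear-encoded messages, and the genes described here encode 42 of them. The members were all probe sets on a rat Affymetrix array whose single annotated symbol starts with Rpl or Rps and a digit, or is Rpsa or Rplp0, with S6 kinases and like-named or pseudogene entries left out. Of 31099 probe sets with 14218 named genes, 48 met this rule, and 1 per gene, that of highest mean signal, stands for each of the 42 genes (29 of the large or 60S subunit and 13 of the small or 40S subunit). Another 36 probe sets name a ribosomal protein together with other symbols, and these were left out by the rule. Rplp1, Rplp2, Rpl10 and Rps27a had no probe set under their symbol alone and are not analysed here.

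Ventricles of 1-day-old Wistar rats were dissociated and the cardiomyocytes cultured, after being separated from fibroblasts by differential adhesion and then kept for 24 h in OPTI-MEM, a reduced-serum medium. The cultures were exposed for 3 h to ethanol (vehicle), cortivazol (CVZ, a synthetic glucocorticoid), corticosterone (COR, the main rat glucocorticoid) or aldosterone (ALD, the main mineralocorticoid), at doses that the labels do not give. These 4 groups had 1 array in each of 2 experiments (n = 2). RU486, which blocks the glucocorticoid receptor, was given beforehand at 10 µM in the second experiment only, with 1 array each for RU486 alone, CVZ+RU486, COR+RU486 and ALD+RU486 (n = 1). All 12 arrays share the strain, the age and the culture, and no group carries a genetic change. The study asked how corticosteroids change expression in these cells within 3 h, and whether an antagonist blocks the change. Nothing says that the experiments were separate cell preparations, so a p-value here reflects the spread of these arrays alone, which may be technical.

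Ribosomal proteins are made in equal amounts for assembly with ribosomal RNA in the nucleolus, and their messages are among the most abundant in a growing cell. Most of these messages start with a C followed by a run of pyrimidines, the terminal oligopyrimidine or TOP motif, through which the kinase complex mTORC1 and the RNA-binding protein Larp1 set their translation and stability. In the heart, ribosome number is known to rise in hypertrophic growth. Arrays measure the amount of message and not its translation.

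The TOP motif was looked for in RefSeq promoters of the rat build GRCr8, as a C followed by at least 4 letters that are C or T, on the strand of the gene and beginning within 5 bases either side of the annotated start. A promoter was held for 35 members, and 19 of them (54.3%) had such a run, against 4656 of all 27457 promoters (17%). Beginning exactly at the annotated start, the run stood in 11 members (31.4%) and in 722 of all promoters (2.63%). A match describes letters only, and no match says only that these letters are not in this window. The windows below are shown because their genes carry the results that follow. Each has 10 bases before the start and 20 from the start on, read 5′ to 3′ on the strand of the gene, with the run in capitals. They lie at chr5:106420521-106420550 for Rps6 (minus strand), chr8:73566467-73566496 for Rpl4 (plus), chr3:36661930-36661959 for Rpl12 (plus), chr16:96507-96536 for Rps24 (plus) and chr3:43165902-43165931 for Rpl35 (minus). The others lie at chr8:128728869-128728898 for Rpsa (plus), chr10:83519054-83519083 for Rpl19 (plus), chr12:46718371-46718400 for Rplp0 (minus), chr12:13386134-13386163 for Rpl21 (minus) and chrX:121195877-121195906 for Rpl39 (minus).
Rps6: ctcctaggcggtcggctgtgtcaagatgaa
Rpl4: tcttcCTTTTCCTgtgggagcagccgggta
Rpl12: aacatccgtCTTTTCggctttcggttcgga
Rps24: ggtcctcttttCCTCCTTTacagctcgggc
Rpl35: cttcctctttCTCTCgaaccgggcggcctc
Rpsa: ccgcgctaccctggaacgggtccgtacggc
Rpl19: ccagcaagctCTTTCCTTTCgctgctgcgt
Rplp0: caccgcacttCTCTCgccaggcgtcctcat
Rpl21: ttccgccggggcagccatcttccaggttgg
Rpl39: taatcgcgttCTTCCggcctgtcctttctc
The runs of Rpl19, Rpl35, Rplp0 and Rpl39 begin at the annotated start, those of Rpl4, Rpl12 and Rps24 lie beside it, and none begins within 5 bases of the start of Rps6, Rpsa or Rpl21.

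All values are deposited signals divided by the median of their array, so that 1 is the median probe set. On this scale 38 of the 42 members were very bright, with a mean log2 value from 5.99 (Rpl21) to 8.18 (Rps29), all at or above the 98.6th percentile of the array. The probe sets of the other 4 were dim: Rpl39 had a mean log2 value of 1.36, Rps13 of -0.25, Rpl30 of -0.72 and Rpl28 of -1.08. Rpl30 and Rpl28 stayed below the level required for testing (log2 -0.67), which left 40 tested members. A signal depends on the probes of a set, so these values do not order the genes by amount of message. Over the 12 arrays the 38 bright members ranged by 0.32 to 1.09 log2 units, with the widest ranges in Rps6 (1.09), Rpl37a (0.99) and Rpsa (0.96) and the narrowest in Rps16 (0.32).

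The cultures had the signals of their labelled cell type. The cardiac myosin and troponin genes Myh6 and Tnnt2 stood at 268 to 381 and 235 to 341 on the 12 arrays, and the summed signal of 9 measured cardiomyocyte markers was 2210 to 2400 in the first experiment, 2060 to 2320 in the second without RU486 and 1830 to 2060 with it. Markers of other cells were also present. The summed signal of 7 fibroblast markers was 358 to 438 in the first experiment, 191 to 198 in the second and 173 to 187 with RU486, and that of 2 erythroid markers 85 to 124, 27.8 to 33.8 and 28.7 to 37.6. The shape of the arrays differed between experiments as well. The 99th percentile of the values was 93.2 to 98.7 on the 4 arrays of the first experiment and 74.8 to 83.1 on the 8 arrays of the second, and 62 of the 311 probe sets above the 99th percentile of mean signal (19.9%) name a ribosomal protein.

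**Figure D1:**
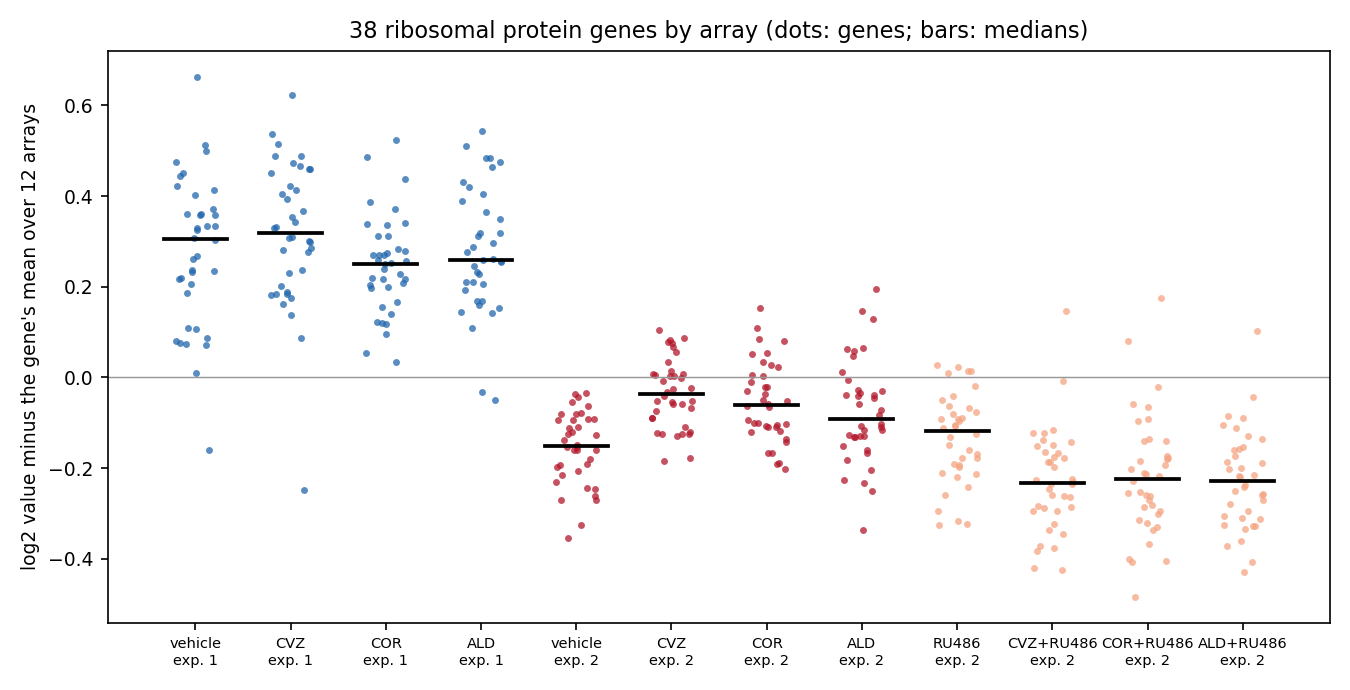
Log2 value of each of 38 bright ribosomal protein genes minus that gene's mean over the 12 arrays (dots), by array, with the median as a bar; blue is the first experiment, red the second and pale orange the second with RU486. The medians of the first 4 arrays are above 0 and those of the 8 arrays of the second experiment below 0.

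Ribosomal protein genes, by the brightest probe set of each, were close to level across the steroids. Against vehicle, with the experiment as a block, 0 of 40 members rose and 1, Rpl39, fell with CVZ, with COR and with ALD, by limma at a Benjamini-Hochberg adjusted p below 0.05. Over all 18625 tested probe sets 7.96%, 3.39% and 0.95% were called. The median log2 difference of the members was 0.08 with CVZ, 0.03 with COR and 0.02 with ALD, and over all probe sets it was 0.01, 0.01 and 0.02. Under the other 4 scalings the member medians lay between -0.05 and 0.02. The 3 comparisons share the 2 vehicle arrays. Before adjustment 5, 5 and 6 members had a p below 0.05.

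The 38 bright members differed from vehicle by -0.07 to 0.19 with CVZ, by -0.17 to 0.26 with COR and by -0.15 to 0.24 with ALD on the log2 scale. The 95% interval of a single member, without adjustment for the number of tests, reached a median of 0.15 to either side. This is not the smallest difference that the adjusted test could call. Differences up to 0.26 were not called, so changes above 0.15 may also have been missed. Within the first experiment the median CVZ difference of the 40 members was 0.04, and within the second 0.11. For COR these were -0.03 and 0.08, and for ALD -0.01 and 0.04. With the 3 ligands averaged the median was 0.05, 30 of 40 members were above 0, and Rpl39 was again the only member past the threshold (5.44% of all probe sets were called).

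The members with a special place in the ribosome show this level course. Rplp0, the base of the stalk that recruits elongation factors, stood at 193 with vehicle, 205 with CVZ, 184 with COR and 192 with ALD in the first experiment and at 139, 154, 154 and 148 in the second. Rpl11, which with Rpl5 forms a particle with the 5S RNA and can restrain Mdm2, stood at 142, 149, 143 and 129, and then at 118, 127, 130 and 146. Rpl5 stood at 228, 231, 205 and 215, and then at 163, 174, 160 and 160. In the second experiment the vehicle array of Rplp0 and Rpl11 was below all 3 ligand arrays, in the first it was not, and in Rpl5 it lay among them in both. Rpl3, which reaches towards the centre of peptide bond formation, stood at 249, 257, 241 and 237 and then at 178, 193, 181 and 177. Rpl41, the smallest ribosomal protein, stood at 117, 128, 121 and 120 and then at 100, 102, 120 and 115. Rps6, the substrate of S6 kinase, had the lowest fitted difference of the bright members with COR and with ALD: -0.17 ± 0.08 (SE) with COR (adjusted p = 0.39 in limma) and -0.15 ± 0.08 with ALD (adjusted p = 0.64), against 0.04 ± 0.08 with CVZ.

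Between ligands, 0 of 40 members passed the threshold of the limma fit for COR against CVZ, ALD against CVZ or ALD against COR, where 0.966%, 4.25% and 0.295% of all probe sets were called. Before adjustment 6, 5 and 1 members had a p below 0.05. The medians were -0.06, -0.05 and 0.01, the bright members lay between -0.22 and 0.25 in these 3 comparisons, and the interval of a single member again reached 0.15 to either side. Because the doses are not in the labels, these values compare the cultures as treated and not the compounds at equal dose.

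**Figure D2:**
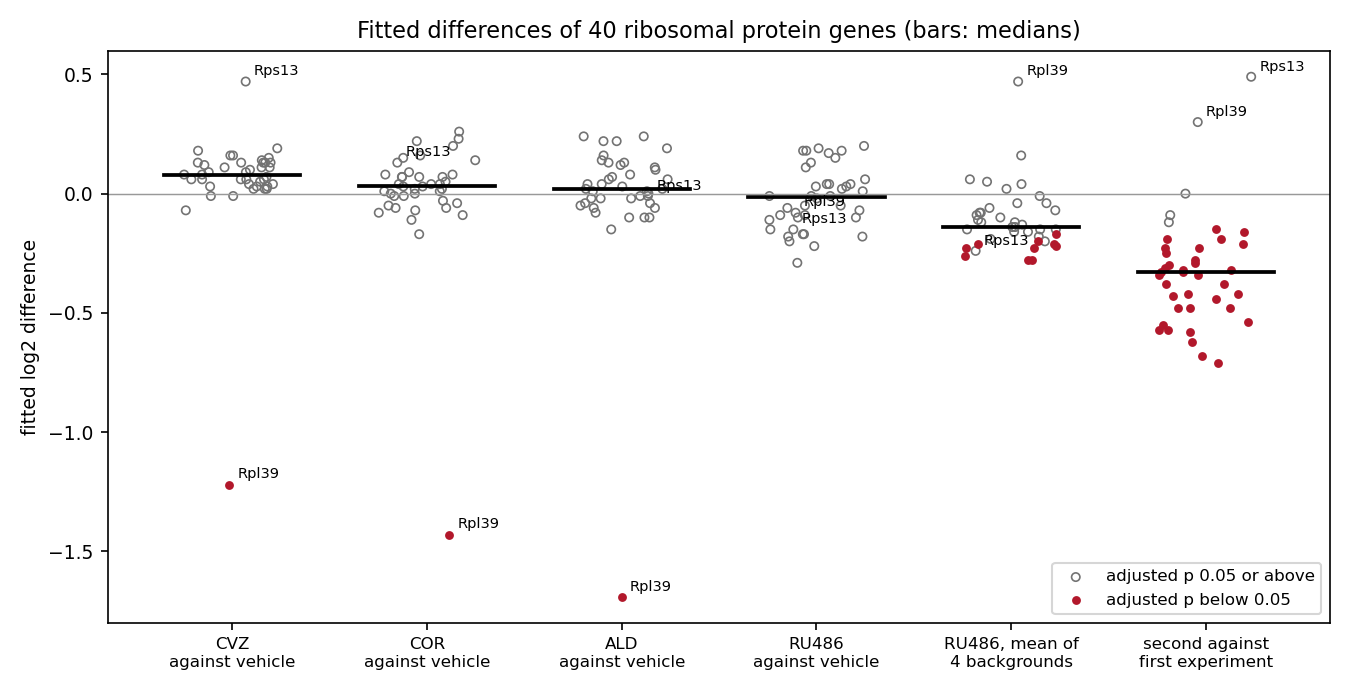
Fitted log2 difference of each of the 40 tested ribosomal protein genes in 6 comparisons, with filled dots for an adjusted p below 0.05 and a bar at the median. Rpl39 stands alone under the 3 ligands, and 37 of the 40 genes lie below 0 in the second against the first experiment (median -0.33).

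Rpl39, a very small protein that lines the exit tunnel of the large subunit, was the exception among the tested members, and its probe set is dim. Its mean signal lay at the 67.4th percentile of the array, against the 98.6th or above for the 38 bright members. Whether its probes match the mature Rpl39 message was not checked, so the values below are those of this probe set. In the first experiment it stood at 4.14 with vehicle, 1.61 with CVZ, 2.17 with COR and 0.963 with ALD, and in the second at 5.25, 2.4, 1.3 and 2.02. Each of the 6 ligand arrays was below both vehicle arrays. The log2 difference was -1.22 ± 0.29 (SE) with CVZ, -1.43 ± 0.29 with COR and -1.69 ± 0.29 with ALD (limma adjusted p = 0.016, 0.0097 and 0.0073), and -1.45 ± 0.24 for the mean of the 3 (adjusted p = 0.0012). On the scale of value plus pseudocount that mean is a level 2.72-fold lower than vehicle.

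With RU486 alone Rpl39 stood at 4.88, within the range of the vehicle arrays, and with CVZ+RU486, COR+RU486 and ALD+RU486 at 3.46, 3.56 and 2.1. All 3 were above the array of the same ligand without RU486 in that experiment, and all were below RU486 alone. The ligand difference in the presence of RU486 was -0.71 (95% interval -1.43 to 0.02, adjusted p = 1 in limma), and the difference between the responses with and without RU486 was 0.74 (-0.15 to 1.62, adjusted p = 0.8), so a change of the response by RU486 was not shown. The fall of Rpl39 was called under 5 scalings of the arrays. Without the experiment block its adjusted p was 0.38, 0.54 and 1 for the single ligands and 0.19 for their mean. Leaving out either vehicle array ended the call for each single ligand (adjusted p from 0.076 to 0.12), as did leaving out the first CVZ array for CVZ (0.14), the second COR array for COR, which moved the difference to -0.76, and the first ALD array for ALD (0.13). The call of the mean remained when any 1 array was left out.

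**Figure D3:**
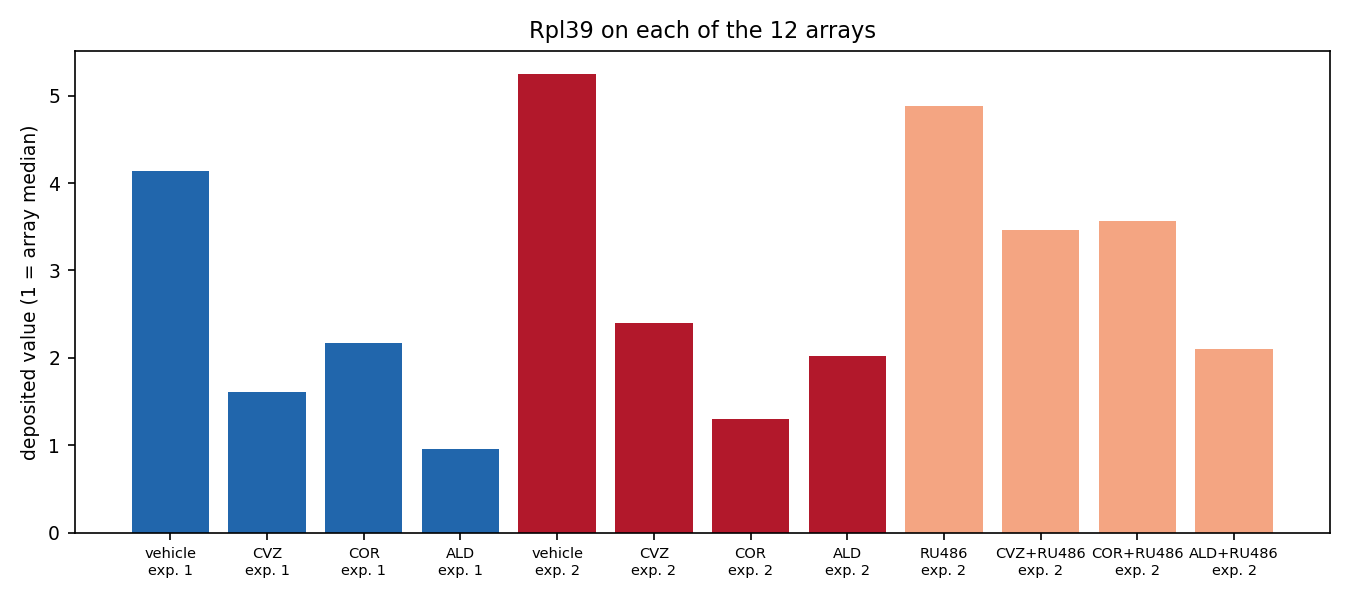
Deposited value of Rpl39 on each of the 12 arrays, where 1 is the median of the array; blue is the first experiment, red the second and pale orange the second with RU486. The 6 arrays with a ligand alone (0.963 to 2.4) are below both vehicle arrays (4.14 and 5.25).

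Signals of ribosomal protein genes were slightly lower with RU486 as deposited, though no member was called lower under all 5 scalings. Averaged over the 4 backgrounds of RU486 (vehicle, CVZ, COR and ALD), 10 of 40 members fell and 0 rose (limma, adjusted p below 0.05), where 2.16% of all probe sets were called lower. The median of the members was -0.14 and that of all probe sets 0.01, 34 members were below 0, and 26 had an unadjusted p below 0.05. This comparison rests on the 8 arrays of the second experiment, and it assumes that a lone RU486 array varies as the replicated ones do.

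The 10 members that fell were Rpl7a, Rpl37a, Rpsa, Rpl19, Rpl35, Rps29, Rpl5, Rps9, Rpl27a and Rpl26, with log2 differences from -0.28 to -0.17 (adjusted p from 0.0029 to 0.045), or signals 17.9% to 11.2% lower, of which 7 belong to the 60S and 3 to the 40S subunit. Rpl7a, a core protein of the large subunit, stood at 215 with vehicle, 220 with CVZ, 204 with COR and 191 with ALD in the second experiment, and with RU486 added at 176, 164, 175 and 166. All 4 values with RU486 were below all 4 without it (-0.28 ± 0.05, SE). Rpsa, a protein of the small subunit also known as the laminin receptor, stood at 109, 117, 109 and 99.5 without RU486 and at 92.9, 86.9, 88.2 and 92.8 with it, again without overlap (-0.26 ± 0.05). Rpl37a, a zinc-binding protein of the large subunit, went from 159, 188, 163 and 160 to 146, 135, 125 and 144 (-0.28 ± 0.05). For 13 of the 40 members the 4 arrays with RU486 lay below the 4 without it, as did 3.6% of all tested probe sets.

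By background, the median difference of the 40 members was -0.01 for RU486 alone against vehicle, -0.2 for CVZ+RU486 against CVZ, -0.2 for COR+RU486 against COR and -0.15 for ALD+RU486 against ALD, each from 1 array against 1 in the second experiment. In the fit, RU486 alone against vehicle called 0 of 40 members (0.129% of all probe sets, 4 members with an unadjusted p below 0.05). The ligands with RU486 against RU486 called 0 (0% of all probe sets, 2 members before adjustment, median -0.09). The difference between the ligand responses with and without RU486 called 0 as well (1.09% of all, 7 before adjustment, median -0.15), so a dependence on the ligand was not shown.

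**Figure D4:**
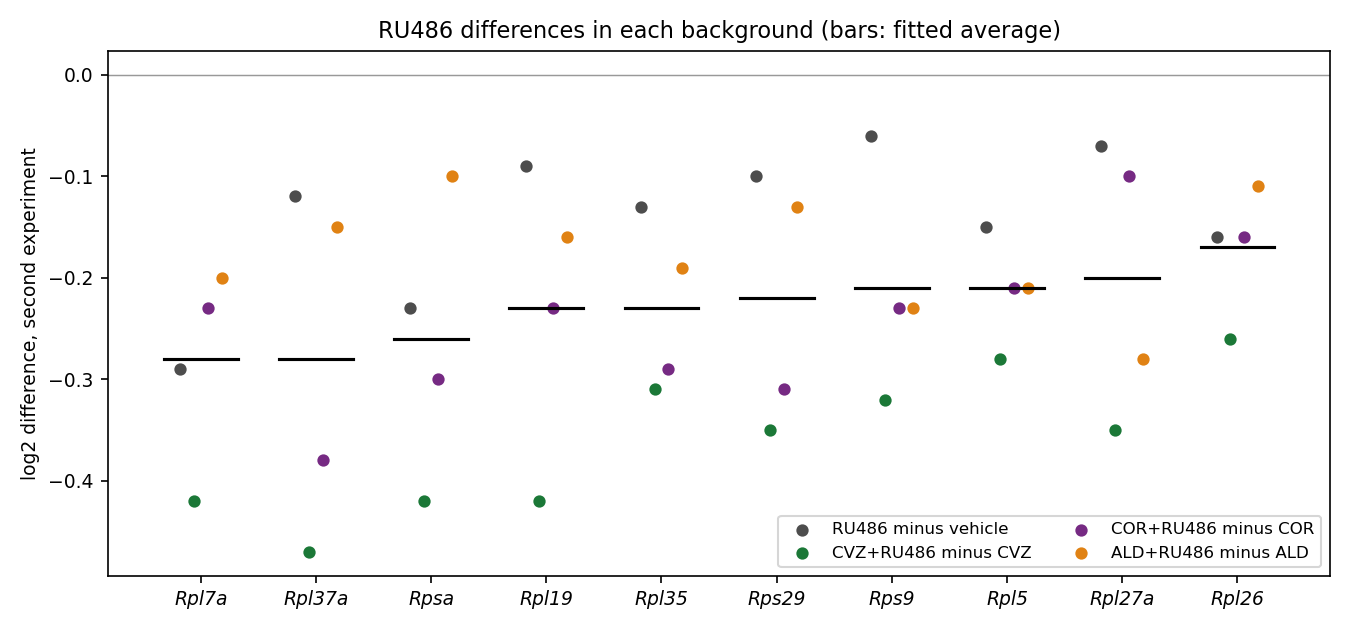
Log2 difference between the array with RU486 and the array without it in the second experiment, for the 10 ribosomal protein genes that fell on average, in each of 4 backgrounds (dots, 1 array against 1), with the fitted average as a bar. All differences are below 0, and the CVZ background has the lowest value for each gene. The genes were chosen by the fitted average, so their common sign partly follows from the choice. Over all 40 tested members, RU486 alone against vehicle was below 0 in 21 and above 0 in 19.

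Several properties of the arrays also differed with RU486. The array medians before division were 35.4 to 37.7 with RU486 and 22.4 to 33.7 on the other arrays of the second experiment. RU486 alone had such a median of 35.4, and its median member value was 127, against 119 with vehicle. The 99th percentile of the values was 83.1, 81.1 and 81.9 with CVZ, COR and ALD, and 74.8, 77.1 and 75.6 with RU486 added. It was 75.3 with vehicle and 80.5 with RU486 alone. Of 9 cardiomyocyte markers 4 were called lower with RU486 as well (median -0.16). Of these Myl2 was called under 4 of the 5 scalings, and Myh6, Pln and Tnni3 under 2. Of 5 smooth muscle markers 1, Tagln, was called lower (list median -0.39), and of 3 tested endothelial markers 1, Kdr (list median -0.19), each under all 5 scalings, while 0 of 7 fibroblast and 0 of 6 macrophage markers were called as deposited. Kdr was also called higher with CVZ, COR and ALD against vehicle, under all 5 scalings. In the second experiment it stood at 2.45 with vehicle, 12.5 with CVZ, 13 with COR and 8.86 with ALD. With RU486 added these were 2.3, 4.1, 5.77 and 5, so its level with RU486 does not count endothelial cells alone. The part of the array medians, of the 99th percentile or of other cells in the result was not tested. Under quantile normalization 2 of 40 members were called lower, under cyclic loess 2, and with arrays centred on bright probe sets that name no ribosomal protein 2 lower and 1 higher (Rpl23a), against 12 under trimmed-mean scaling. Of all probe sets 2.11%, 2.01%, 1.35% and 2.4% were called lower under these 4, and 6.17% were called higher under the centring. The median of the members was -0.02, -0.04, -0.04 and -0.14 in this order, and no member was called lower under all 5 scalings. With no experiment block, RU486 arrays of the second experiment were set against arrays of both, which takes in the difference between the experiments. The member median was then -0.3, and 0 of 40 members were called. The count was also 1 without the second CVZ array, 1 without the CVZ+RU486 array, 4 without the second COR array, 6 without the first CVZ array, 6 without the COR+RU486 array and 15 without the first vehicle array.

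As deposited, most ribosomal protein genes differed between the experiments. In the second experiment 35 of 40 members were lower than in the first and 0 higher (limma, adjusted p below 0.05), where 28.2% of all tested probe sets were called lower and 10.7% higher. The median was -0.33 for the members and -0.1 for all probe sets. Both subunits shared it, with 24 of 27 members of the 60S subunit called lower (median -0.33) and 11 of 13 of the 40S subunit (median -0.32). For 32 of the 40 members the 4 arrays of the second experiment without RU486 lay below the 4 of the first, as did 24.2% of all probe sets. By group the median difference was -0.43 for vehicle, -0.34 for CVZ, -0.3 for COR and -0.35 for ALD.

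Rps6 fell most among the members past the threshold. It stood at 290, 282, 231 and 267 in the first experiment (vehicle, CVZ, COR and ALD) and at 165, 180, 163 and 145 in the second, a difference of -0.71 ± 0.06 (SE, limma adjusted p = 2e-07). Rpl4, whose extension reaches into the exit tunnel, went from 121, 120, 123 and 118 to 74.9, 78.5, 75 and 71.9 (-0.68 ± 0.05). Rpl12, which sits at the base of the stalk, went from 187, 193, 190 and 195 to 117, 124, 127 and 130 (-0.62 ± 0.05). In none of the 3 did the experiments overlap. Rps24, mutated in some families with Diamond-Blackfan anaemia, went from 209, 217, 194 and 228 to 130, 149, 145 and 145 (-0.58 ± 0.05). Rpl35 differed by -0.57 ± 0.05 and Rpsa by -0.57 ± 0.05. The stalk protein Rplp0 differed by -0.38 ± 0.05, Rpl5 by -0.42 ± 0.05 and Rpl3 by -0.43 ± 0.04. Rpl21 of the large subunit stood at 56.6, 53.3, 74.2 and 61.1 and then at 55.9, 58.7, 58.3 and 72.5, and the 2 sets overlapped (0 ± 0.08, adjusted p = 0.97). Rpl11 also stayed within the threshold (-0.12 ± 0.07, adjusted p = 0.17).

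How far the group lay below the first experiment depended on how arrays were brought to a common scale, which also moved the median of all probe sets from -0.1 to 0.1 under trimmed-mean scaling, 0.03 under quantile normalization, 0.01 under cyclic loess and 0.14 under centring on bright probe sets. In the same order the median of the members was -0.13, -0.07, -0.03 and -0.09, with 20 called lower and 1 higher, 17 and 3, 15 and 5, and 17 and 3. Over all probe sets the share called lower was then 16.2%, 17.4%, 18.6% and 13.7%, and the share called higher 23.7%, 19.1%, 18.3% and 27.4%. Called lower under all 5 scalings were 15: Rps6, Rpl4, Rpl12, Rps24, Rpl35, Rpsa, Rpl7a, Rpl37a, Rpl3, Rpl5, Rpl7, Rpl14, Rpl23, Rps3a and Rps15a. For Rps6 the difference was -0.51, -0.47, -0.41 and -0.47 under the other 4, and for Rpl4 -0.48, -0.43, -0.4 and -0.44. Rplp0 was called lower under 3 of the 5, Rpl41 changed sign under all 4 others, and Rpl21 was called higher under those 4, by 0.21 to 0.28. Rpl11 was called higher under quantile normalization (0.16) and cyclic loess (0.18) alone.

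**Figure D5:**
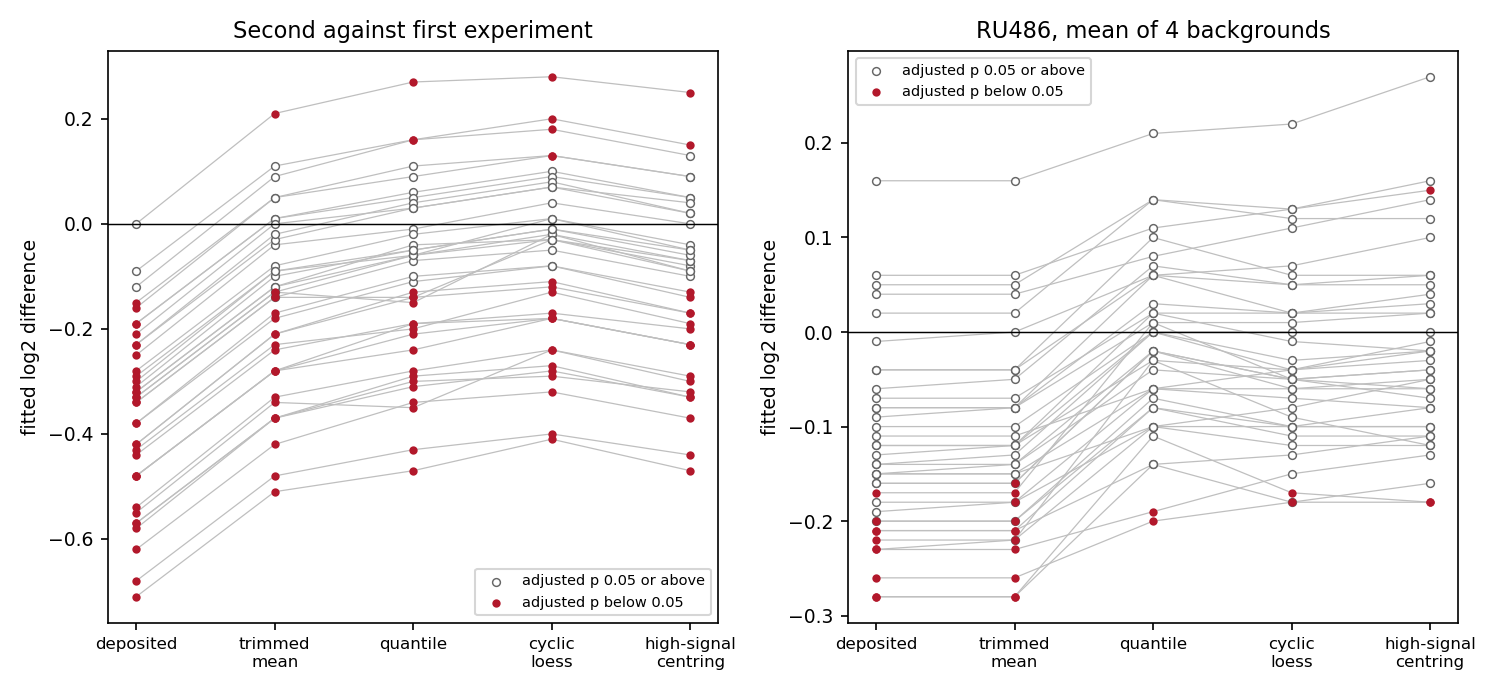
Fitted log2 differences of 38 bright ribosomal protein genes under 5 scalings of the arrays (lines join a gene), for the second against the first experiment (left) and for RU486 averaged over 4 backgrounds (right), with filled dots for an adjusted p below 0.05. On the left the medians over all 40 tested members run from -0.33 as deposited to -0.03 under cyclic loess, and on the right from -0.14 to -0.02.

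Markers of other cell types also differed between the experiments. All 7 fibroblast markers were lower in the second experiment under each of the 5 scalings (median from -1.3 to -1.03), and 2 of 2 erythroid markers were lower as deposited (median -1.21). As deposited, 2 of 6 macrophage markers, 1 of 3 tested endothelial markers (Tek) and 1 of 5 smooth muscle markers (Tagln) were called lower as well, with list medians of -0.06, -0.52 and 0.07. Cd14, of the macrophage list, Tek and Tagln were lower under all 5 scalings. Cardiomyocyte markers had 1 of 9 called higher and 4 lower as deposited, and under the other scalings 3 to 6 higher and 1 lower. In a culture measured in bulk, fewer cells of a type and less RNA per cell cannot be told apart, and the part of either in the ribosomal protein values was not tested.

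Genes with several probe sets did not always move together. A further Rpsa probe set was called lower in the second experiment (-0.6 ± 0.05), as was one of Rpl7 (-1.17 ± 0.11). The remaining Rpsa set (-0.16 ± 0.07, adjusted p = 0.087) was not called. Further sets of Rpl3 (0.25 ± 0.23) and Rps24 (0.26 ± 0.14) were not called in this comparison and had the opposite sign to the sets used above. With the ligands the further Rpl3 set, which is dim, stood apart from the bright one. It was at 0.833 with vehicle, 3.34 with CVZ, 2.71 with COR and 4.53 with ALD in the first experiment and at 2.35, 4.26, 1.85 and 3.81 in the second, so the COR array lay above vehicle in the first experiment and below it in the second. It was called higher with CVZ (1.38 ± 0.32, limma adjusted p = 0.013), ALD (1.52 ± 0.32, adjusted p = 0.033) and the mean of the 3 ligands (1.18 ± 0.26, adjusted p = 0.013), and not with COR (0.65 ± 0.32, adjusted p = 0.42). Ribosomal protein genes have many processed copies in the genome, and probe sets can share signal between them. The 36 probe sets that name a ribosomal protein with other symbols had 0 called with each ligand (medians 0.08, 0.05 and 0.06), 7 called lower with RU486 (median -0.11) and 29 called lower in the second experiment (median -0.29).

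Members with a TOP run within 5 bases of the annotated start were set beside those without one, with no test of the difference. In the second experiment 16 of the 18 tested members with a run were called lower (median -0.35) and 13 of 16 without one (median -0.33). With RU486 these were 3 of 18 (median -0.14) and 4 of 16 (median -0.13), and for the mean of the 3 ligands the medians were 0.06 and 0.05.

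Other parts of the translation machinery were followed with the members. Of 13 TOP and elongation genes, such as Eef1a1, which delivers transfer RNA to the ribosome, 0 were called with any ligand (medians 0.04, 0.09 and 0.1), 0 with RU486 as deposited, and 10 were lower in the second experiment (median -0.32, with 4 lower and 1 to 2 higher under the other scalings). Eef1a1 stood at 208 to 224 in the first experiment, 146 to 168 in the second and 157 to 175 with RU486. Of 27 initiation factors 0 were called with any ligand. With RU486 Eif1a (0.42 ± 0.09) and Eif2s2 (0.26 ± 0.06) were called higher, under all 5 scalings. Of all probe sets 1.85% were called higher with RU486 as deposited. In the second experiment 16 initiation factors were called lower and 2 higher as deposited, and 9 to 10 lower and 6 to 7 higher under the other scalings. Of all probe sets 28.2% were called lower and 10.7% higher in that comparison as deposited. Under the other scalings these shares were 13.7% to 18.6% and 18.3% to 27.4%.

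Over all probe sets, 4.77% were called higher and 3.19% lower with CVZ, 2.44% and 0.956% with COR, and 0.87% and 0.0805% with ALD, beside which the counts of the next lists stand. Among 46 genes of ribosome assembly (4.35% called higher with CVZ), CVZ raised 2: Nmd3, the export adaptor of the large subunit (0.63 ± 0.09), and Tsr1, which acts on the small subunit (0.7 ± 0.12). COR lowered Nop56, a nucleolar protein of the box C/D particles (-0.4 ± 0.1), and ALD called 0. Of 73 mitochondrial ribosomal proteins 2 were called with CVZ (2.74%), a share below that of all probe sets. CVZ raised Mrpl15 (0.73 ± 0.09) and Mrpl14 (0.44 ± 0.13, called under 3 of the 5 scalings), COR raised Mrpl15 (0.51 ± 0.09), and ALD called 0. In the second experiment 28 mitochondrial members were called lower and 4 higher as deposited, beside 28.2% and 10.7% of all probe sets. The mitochondrial counts turned to 7 to 13 lower and 23 to 26 higher under the other scalings. Of 8 measured paralogues and like-named genes that the rule left out, 5 were tested, and Rpl7l1 alone was called, lower in the second experiment (-0.25 ± 0.08). It was called under 1 of the 5 scalings, as deposited, where 28.2% of all probe sets were called lower.

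Of 24 genes of mTORC1 and S6 kinase signalling, CVZ raised 4 and lowered 2, COR raised 2 and lowered 2, and ALD raised 2. Sesn1, a leucine sensor that restrains mTORC1, stood at 6.62 with vehicle, 45.5 with CVZ, 39.2 with COR and 23.9 with ALD in the first experiment and at 5.74, 48.1, 38.8 and 25.3 in the second (2.91 ± 0.1, 2.65 ± 0.1 and 1.99 ± 0.1). Ddit4, also an inhibitor of mTORC1, was higher by 1.26 ± 0.12, 1.07 ± 0.12 and 0.72 ± 0.12, and its relative Ddit4l was lower with CVZ (-1.25 ± 0.19) and COR (-0.92 ± 0.19). With CVZ Rheb, the activator of mTORC1, and Eif4ebp1, a target of it, were each called higher by 0.51. Larp1 stood at 24.7 and 21.8 with vehicle and at 17.7 and 13.7 with COR (-0.57 ± 0.11), and it was lower with RU486 on average (-0.57 ± 0.08). Sesn1 was also called lower with RU486 on average (-0.49 to -0.38 over the 5 scalings). With RU486 alone (1 array), however, Sesn1 stood at 11.6 against 5.74 with vehicle in the second experiment, higher by 0.86 to 0.91 in the fit. Its ligand response with RU486 minus that without was -1.87 to -1.72. Sesn2 was the 1 gene of this list called higher with RU486 on average (0.83 to 0.97). These calls held under the 5 scalings. Beside these genes the 38 bright ribosomal protein genes differed by no more than 0.26 from vehicle with any ligand.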

How the data were processed

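Each of 12 arrays was hybridised with labelled RNA of 1 culture. The authors deposited intensity values on a linear scale, MAS5 signals per the submitters' processing notes, and tested on the file each array's values had been divided by its own median. The number of arrays sets the precision. Symbols came from the array annotation (20832 probe sets with 1 symbol, 436 with several, 9831 with none). After 57 controls were set aside, log2(value + 0.0696), the pseudocount being the 10th percentile, was fitted for 18625 probe sets with a mean above the 40th percentile, in limma 3.58.1 and R 4.3.3 (lmFit, eBayes with trend, 8 groups and the experiment as a block, 3 residual and 15.2 total degrees of freedom, 12 comparisons, Benjamini-Hochberg over all tested probe sets). Folds are on the scale of value plus pseudocount, which understates those of dim genes.

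The labels give the experiment of each array, and deviations from group means correlated between groups at 0.512 to 0.567 within an experiment, so arrays are paired by it. Named members were those past the threshold (the 6 largest falls and rises where over 10), the extremes of level and range, and members of set roles. The members and lists were chosen with earlier results of these data known. The alternatives were 3 other normalizations, 2 pseudocounts, 2 filters, a fit without the block or the trend, another probe set per gene and leaving out single arrays. The fit was tested on simulated data. Centring on bright probe sets was added after the data were seen. Gene places and sequences are RefSeq's (GRCr8).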

Additional observations from a re-analysis of the deposited data

Results flagged for a closer look

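In 4 of the 40 tested ribosomal protein genes the 3 ligand arrays lay below vehicle in the first experiment and above it in the second. The share of all probe sets with this pattern was not counted, so it is not shown to be particular to these genes. In the second experiment the 99th percentile of all values was also lower with vehicle (75.3) than with CVZ, COR and ALD (83.1, 81.1 and 81.9). The mean log2 difference of the ligands from vehicle was -0.04 and then 0.1 in Rpl35a (a change of 0.14), -0.04 and 0.07 in Rpl6 (0.11), -0.07 and 0.07 in Rpl7 (0.14) and -0.08 and 0.09 in Rps3a (0.18). The difference between the experiments was not tested, and no interval was computed for it. The median of 0.15 to either side given above belongs to a single ligand against vehicle over both experiments. It is not a measure of the spread of these changes, each of which rests on 1 vehicle array per experiment.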

How the results depend on the processing

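Each of the 12 counts of ribosomal protein genes past the threshold was recomputed under the alternatives, and 198 of 231 recomputed counts stayed within 1.5 times. A count of 0 that stayed 0 is among these 198, so the ratio says little about the comparisons with many calls. The pairwise ligand comparisons, RU486 against vehicle, the ligands with RU486 and the interaction kept 0 members throughout. With CVZ, COR, ALD and their mean 0 members were called without the replicate block or without the variance trend, and with CVZ 0 without the filter. Leaving out 1 array gave 0 to 1 for each ligand and 1 to 2 for the mean. For RU486 averaged over 4 backgrounds, 2 were called under quantile normalization, 2 under cyclic loess, 3 without the filter, 3 when centred on bright probe sets, 0 without the trend and 0 without the replicate block, and 1 to 15 when 1 array was left out. Rpl26 moved to 0.01 there under quantile normalization. For the second against the first experiment 20, 21, 20 and 20 were called in either direction under quantile, trimmed-mean, loess and bright-probe scaling, 22 without the trend, and 32 to 36 with 1 array left out. Rpl41 turned to 0.09, 0.05, 0.13 and 0.09 under these scalings, Rps23 to 0.01 under loess, and Rps24 to 0.26 with its other probe set. The cause was not tested. Over all probe sets the calls fell without the replicate block from 1483 to 215 with CVZ, from 632 to 41 with COR and from 177 to 13 with ALD, and from 748 to 11 for RU486 on average. Without the block the RU486 average also takes in the difference between the experiments.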
